A study of Mus musculus with 4 samples.

Results

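The keratin genes of the mouse lie in 2 clusters, and macroH2A was described over both. MacroH2A is a histone H2A variant with a large globular macrodomain. The type II interval runs from 101170000 to 101870000 on chromosome 15 (mm9, 700 kb). The type I interval, which also holds the keratin-associated genes, runs from 99090000 to 100130000 on chromosome 11 (mm9, 1040 kb). Both were chosen by position alone, and their members are the stretches enriched for macroH2A (islands) that overlap them. In the myoblast library 70 of 30016 islands were members, 24 over type II and 46 over type I. In the myotube library 59 of 29473 were members, 21 over type II and 38 over type I. Gene positions of mm9 were not used here, so no island is assigned to a gene. Expression was not measured, so the silence of keratins in muscle is background and not a result.

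Keratins form the intermediate filaments of epithelial cells, hair and nails. Each filament is built from pairs of 1 type I (acidic) and 1 type II (basic) chain, and pairs such as Krt5 with Krt14 or Krt8 with Krt18 mark particular epithelial layers. Skeletal muscle relies on desmin, another intermediate filament protein, in place of most keratins. Keratin-associated proteins cross-link the keratin filaments of hair. MacroH2A is best known from broad domains over silent chromatin, including the inactive X chromosome.

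In RefSeq's gene order (assembly GRCm38.p6, used for names and order only), the type II cluster holds 26 protein-coding keratin genes between Smim41 and Eif4b. The order begins with Krt80, Krt7, Krt87 and Krt88. Hair keratins such as Krt81, Krt86 and Krt83 follow, then the stress-induced Krt6b and Krt6a, the basal epidermal Krt5, the differentiated epidermal Krt2 and Krt1, and the oesophageal Krt4. It ends with Krt8 and Krt18, the pair of simple epithelia, and Krt18 is a type I gene within the type II cluster. Nr4a1 and Atg101 come before Smim41, and Tns2 and Spryd3 follow Eif4b. The type I cluster lies between Smarce1 and Eif1, with Tns4 and Ccr7 before Smarce1 and Gast and Hap1 after Eif1. It opens with Krt222, Krt24 and Krt25, then holds Krt10, the partner of Krt1 in upper epidermis, and Krt12, the corneal keratin. A block of 23 keratin-associated genes, from Krtap3-3 to Krtap17-1, separates these from the hair keratins Krt33a to Krt36. Krt13, Krt15, Krt19, Krt9, Krt14, Krt16, Krt17 and Krt42 close the cluster, which has 27 keratin genes in all.

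The cells were C2C12, an established mouse line of muscle precursors that fuse into myotubes in low-serum medium. Chromatin immunoprecipitation and sequencing (ChIP-seq) with an antibody to macroH2A, for which the labels name no isoform, was done on myoblasts at day 0 and on myotubes at day 5 of differentiation medium. Of the 4 samples in the series these 2 were used, and the 2 input chromatin samples were not analysed here. Each day has 1 library, so differences between days are differences between 2 libraries, with no test. The islands held 24365482 reads at day 0 and 29619426 at day 5, which is not the sequencing depth. Where islands of both days lay, the day 5 library had a median of 1.14 times the reads per kb of the day 0 library. Intervals given are at 95% and cover counting error only.

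In the deposited lists macroH2A islands covered most of the type II interval. At day 0 the 24 islands covered 460 kb, or 65.7% of the interval, and at day 5 the 21 islands covered 497.8 kb, or 71.1%. With only islands above a floor of 70 reads per kb, scaled at day 5 by 1.14, cover was 55.7% and 46.3%. With all islands counted, chromosome 15 as a whole was covered over 32.2% and 34.8%. Both the number and the mean width of the islands were above those of the chromosome. There were 34.3 islands per Mb at day 0 and 30.0 at day 5, against 16.1 and 16.2 on the chromosome. Their mean width was 21.8 kb and 26.2 kb, against 20.0 kb and 21.5 kb on the chromosome. The day 0 mean rests largely on 1 island of 178.2 kb, where the next widest had 40.8 kb. That island was counted at full width, although it begins 44.2 kb outside the interval. The median widths were 14.4 kb and 13.8 kb, against 12.6 kb on the chromosome at both days. The number per Mb therefore stood further from the chromosome than the width did.

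Read density inside the type II islands was near or below that of the chromosome, except when pooled at day 0. Pooled over all islands, day 0 had 89.5 reads per kb of covered length (88.7 to 90.4), against 86.8 on chromosome 15. With only islands wholly inside the interval the day 0 value was 80.4. The higher pooled value thus rested on the islands that cross the bounds. At day 5 all islands together held 98.9 reads per kb (98.0 to 99.7), against 105 on the chromosome. The median single island was less dense than on the chromosome at both days, 77.4 against 80.8 reads per kb at day 0 and 79.8 against 90.2 at day 5. Over the whole interval, covered or not, this came to 58.8 reads per kb at day 0 and 70.3 at day 5. The chromosome had 28.0 and 36.7 on that scale. The higher value of the interval thus lay mainly in its cover. The pooled density of its islands added slightly to it at day 0 and not at day 5.

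**Figure D1:**
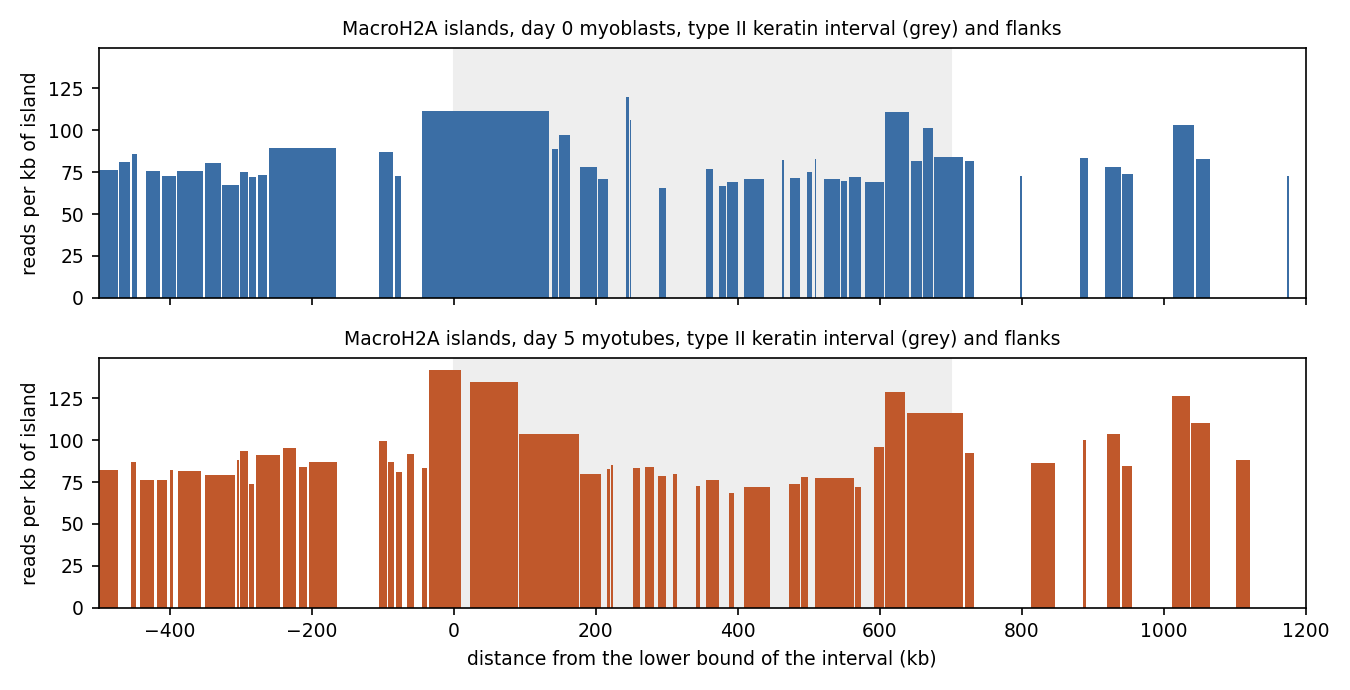
MacroH2A islands over the type II keratin interval (grey) and 500 kb on either side, at day 0 (upper) and day 5 (lower). Each bar is 1 island, its width the island's extent in kb from the lower bound and its height the reads per kb of that island. Cover is high at both ends of the interval and lower in its middle, and the 178.2 kb day 0 island lies over the lower bound.

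The cover of the type II interval was uneven, with full ends and a sparse middle at both days. The interval was cut into 10 parts of 70 kb, and the grouping of parts below was chosen after their values were seen. The first 3 parts were covered over 89.1% at day 0 and 90.7% at day 5. The last 3 parts were covered over 81.8% and 83.4%. The middle 4 parts were covered over 36.1% and 47.2%, so the middle was the least covered at both days. Density followed the same order: at day 0 it was 104 reads per kb of island in the first 3 parts, 72.8 in the middle and 84.1 in the last 3. At day 5 these values were 113, 76.3 and 100.4 reads per kb. The lowest cover of any part was 12.9% at day 0, from 101450001 to 101520000, and the same 70 kb was the lowest at day 5 with 37.4%.

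Wide islands made up the lower end of the type II cluster. The widest day 0 island, from 101125801 to 101304000, spanned 178.2 kb with 19815 reads, or 111 reads per kb (109.7 to 112.8), and began 44.2 kb outside the interval. Day 5 islands covered 90.2% of it, but as 4 separate islands. Of these, the one from 101135401 to 101179800 had 142 reads per kb, the highest density of any day 5 island in either interval. The next, from 101193001 to 101260800, had 135 reads per kb, and the one from 101262601 to 101346000 was the widest at day 5 with 83.4 kb and 104 reads per kb. A stretch of 13.2 kb between the first and second of these had no day 5 island, although it lay inside the single day 0 island.

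At the upper end the order was reversed, with several day 0 islands under 1 wider day 5 island. The island from 101808601 to 101887800 at day 5 spanned 79.2 kb with 9187 reads (116 reads per kb) and met 4 day 0 islands. The widest of those 4 ran from 101847001 to 101887800, 40.8 kb with 83.9 reads per kb. Both end at the same position, 17.8 kb beyond the interval. The day 0 island next in width, from 101778001 to 101811600, had 111 reads per kb. A day 5 island began at the same position and ran to 101806200, with 128 reads per kb. Also in the last 3 parts, the day 5 island from 101679001 to 101733600 (54.6 kb) met 4 day 0 islands.

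The densest day 0 island of the type II interval was also among its narrowest. It ran from 101413201 to 101416200, 3.0 kb with 360 reads, or 120 reads per kb (108 to 133). No day 5 island met it, nor its neighbour from 101418601 to 101420400, with 191 reads. Both lay in the sparse middle of the cluster. Of the day 0 islands that met none, the one with the most reads ran from 101543401 to 101553000 and held 639. At day 5, the islands without a day 0 counterpart with the most reads were from 101439601 to 101452800 (1111 reads), from 101422801 to 101433000 (852 reads) and from 101478601 to 101485200 (525 reads). All 3 lay between 101420401 and 101524800, a stretch in which the day 0 list had 1 island. Their widths were 13.2 kb, 10.2 kb and 6.6 kb.

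The longest stretches without an island lay in the middle 4 parts of the type II interval. At day 0 they were from 101468401 to 101524800 (56.4 kb) and from 101420401 to 101459400 (39.0 kb). At day 5 no stretch reached 30 kb, and the longest was 28.2 kb, from 101394601 to 101422800. Free of islands at both days were 25.8 kb from 101485201 to 101511000 and 18.6 kb from 101394601 to 101413200. Islands are listed only above a calling threshold, so a gap does not show the absence of macroH2A.

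In the deposited lists the type I interval was also covered well above its chromosome. At day 0 its 46 islands covered 606 kb, or 58.3%, and at day 5 its 38 islands covered 700.4 kb, or 67.3%. Cover at day 0 was 43.8% without the 25% least dense islands and 39.6% with a floor of 70 reads per kb. With all islands counted, chromosome 11 was covered over 20.1% and 20.8%. As on chromosome 15, island number stood further from the chromosome than width. There were 44.2 islands per Mb at day 0 and 36.5 at day 5, against 18.3 and 17.4 on the chromosome. The mean island was 13.3 kb and 18.9 kb wide, against 11.0 kb and 11.9 kb.

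Density in the type I islands was 75.7 reads per kb of covered length at day 0 (75.01 to 76.4) and 89.7 at day 5 (89.0 to 90.4). Chromosome 11 had 77.2 and 86.2, so the islands were slightly less dense than those of the chromosome at day 0 and slightly denser at day 5. Over the whole interval the values were 44.1 and 60.4 reads per kb, against 15.5 and 17.9 on the chromosome. Here too the reads over the interval followed mainly from how much of it was covered.

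**Figure D2:**
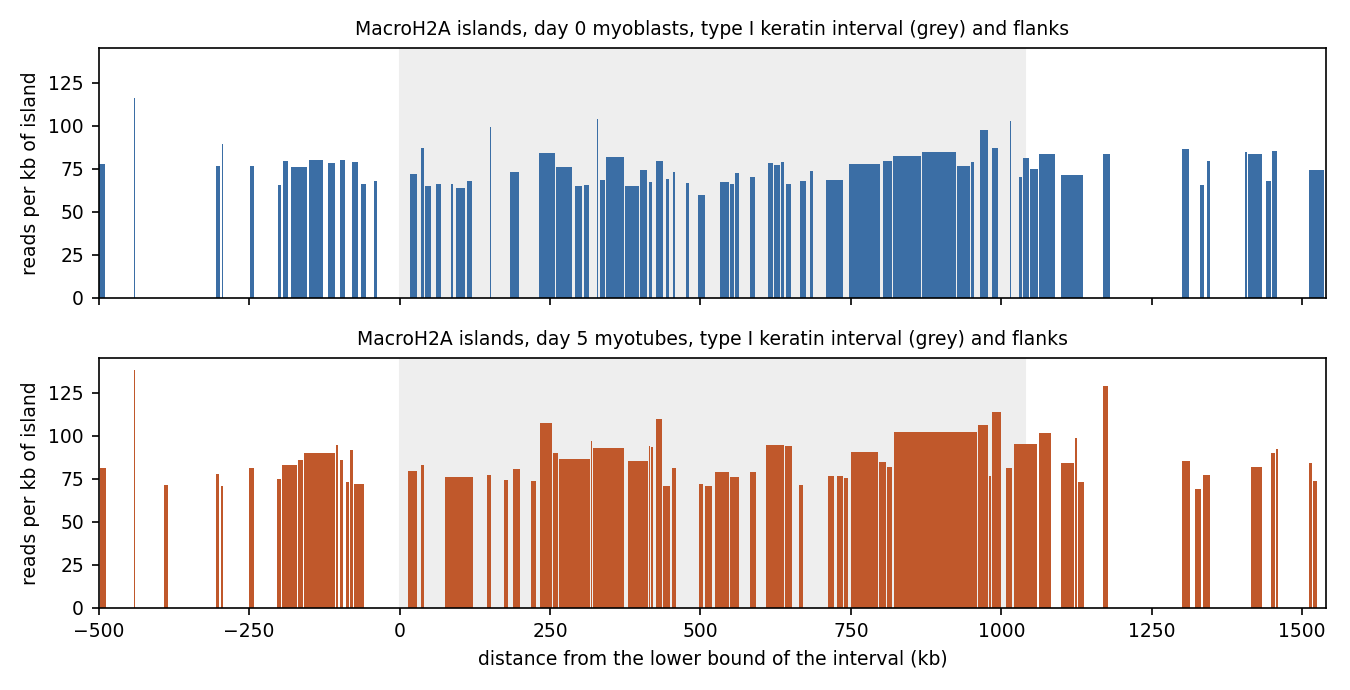
MacroH2A islands over the type I keratin interval (grey) and 500 kb on either side, drawn as for type II, with reads per kb of each island against distance from the lower bound in kb. The widest island of each day lies near the upper end, with 55.2 kb (day 0) and 136.8 kb (day 5), and day 5 islands of 51.6 kb and 51.0 kb lie lower down.

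Cover of the type I interval was highest toward its upper end. In parts of 104 kb, the last 3 were covered over 76.2% at day 0 and 90.2% at day 5. The first 3 were covered over 46.5% and 55.4%, and the middle 4 over 53.7% and 59.2%. The ninth part, from 99922001 to 100026000, was the fullest, with 95.4% at day 0 and 100% at day 5. The part above it differed more between days, with 48.7% at day 0 and 83.3% at day 5. The lowest part at both days ran from 99194001 to 99298000, with 26.3% and 40.2%. A second high stretch lay at 99402001 to 99506000, with 74.6% and 88.5%.

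The widest type I islands lay at the upper end. At day 5 one island ran from 99912001 to 100048800, spanning 136.8 kb with 13974 reads, or 102 reads per kb (100.5 to 103.9). It met 4 day 0 islands, which covered 92.5% of it. The widest day 0 island ran from 99958801 to 100014000 (55.2 kb, 84.7 reads per kb), the next from 99836401 to 99889200 (52.8 kb, 77.7 reads per kb) and the one after that from 99910801 to 99956400 (45.6 kb, 82.5 reads per kb). The next widest at day 5 lay in the lower part of the interval, from 99412201 to 99463800 (51.6 kb, 93.0 reads per kb) and from 99355201 to 99406200 (51.0 kb, 86.6 reads per kb). Each of those 2 met 3 day 0 islands.

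The densest type I islands were narrow at day 0 and wider at day 5. At day 0 they were from 99418201 to 99419400 (104 reads per kb), from 100105201 to 100106400 (102.5) and from 99240601 to 99241800 (99.2), each 1.2 kb wide with at most 125 reads. Their counting intervals are wide, 86.7 to 124 reads per kb for the first. Islands are listed only above a calling threshold, and its part in the density of narrow islands was not tested in either interval. At day 5 they were from 100075201 to 100090200 (114 reads per kb, 1705 reads), from 99516001 to 99526800 (109) and from 99324001 to 99342600 (107). All 6 met an island of the other day.

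On chromosome 11, 457 of 2169 day 0 islands and 454 of 2067 day 5 islands met none of the other day. Over type I these were 4 of 46 at day 0 and 5 of 38 at day 5. At day 0 the 3 with the most reads were from 99132601 to 99142800 (660 reads), from 99151201 to 99158400 (476 reads) and from 99565201 to 99571200 (399 reads). At day 5 they were from 99307801 to 99317400 (707 reads), from 99263401 to 99270000 (489 reads) and from 99828601 to 99834600 (454 reads). The widest of them measured 10.2 kb (day 0) and 9.6 kb (day 5), where the chromosome medians were 7.8 kb and 8.4 kb. The longest stretches free of islands at both days were 24.0 kb from 99211801 to 99235800 and 21.6 kb from 99241801 to 99263400.

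**Figure D3:**
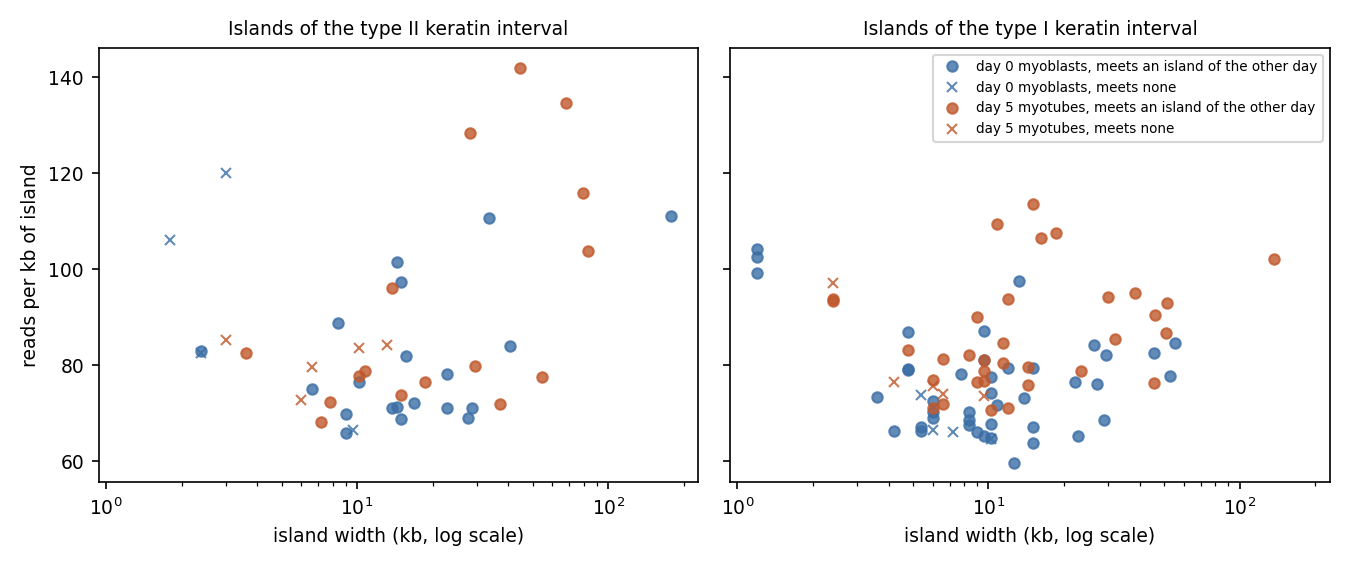
Width (kb, log scale) and reads per kb of every island that overlaps the type II (left) and type I (right) intervals, at day 0 (blue) and day 5 (orange); crosses mark islands that meet none of the other day. The crosses lie at widths up to 13.2 kb, and the islands above 125 reads per kb are all day 5 islands of the type II interval.

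The outer borders of the covered stretches lay close together at both days. Going outward from each bound, the first stretch of at least 30 kb without an island was taken as the border. For type II the lower border was at 101065201 at day 0 and 101064601 at day 5, 0.6 kb apart and 104.8 kb and 105.4 kb outside the interval. The upper border was at 101903400 at both days, 33.4 kb outside, followed by 64.2 kb without an island at day 0 and 79.8 kb at day 5. For type I the lower border lay inside the interval, at 99107401 at day 0 and 99103801 at day 5, after 54.6 kb and 72.6 kb without an island. The upper border was at 100225200 at day 0 and 100227000 at day 5, 1.8 kb apart and 95.2 kb and 97.0 kb beyond the interval. The type I bound at 99090000 therefore fell in a gap at both days, whereas the other 3 bounds were crossed by an island at both days. Between the borders the stretches were broken by gaps of the same size, which differed by day. Inside the type II interval there were 2 gaps of at least 30 kb at day 0 and none at day 5. Inside the type I interval there were 2 at day 0 and 3 at day 5, of which the one from 99130801 to 99166200 (35.4 kb) lay near the lower border.

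The flanks of 500 kb differed between the clusters. Below the type II interval 74.6% was covered at day 0 and 70.2% at day 5, about as much as the interval itself. Above it, cover was 27.3% and 34.3%. The type I interval had sparser flanks on both sides, 27.0% and 31.4% below and 36.4% and 30.2% above. Cover of the interval was 1.29 times that of its joint flanks for type II at day 0 and 1.36 times at day 5. For type I it was 1.84 and 2.19 times. Reads per kb of covered length in the flanks ran from 77.1 to 85.2 at day 0 and from 83.3 to 102 at day 5. At day 0 type II (89.5) was denser than both its flanks (83.7 below, 85.2 above). With only islands wholly inside the interval its value was 80.4, below both flanks. That order therefore rested on the islands that cross its bounds. Type I (75.7) was then less dense than both of its own (77.1 and 78.1). At day 5 type II (98.9) lay between its flanks (90.5 and 102). Type I (89.7) was then denser than both of its own (83.3 and 87.8).

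In steps of 50 kb, the flank below type II was a separate covered stretch beyond a gap. Between 100 and 150 kb below the bound, 9.6% was covered at day 0 and 10.8% at day 5. Farther out no step had less than 62.8% at either day. Above type II, cover was 62.0% at both days in the first 50 kb, then 4.8% and 0%. The step from 100 to 150 kb above differed most between days, with 1.2% at day 0 and 67.2% at day 5. Above type I, the first 50 kb were covered over 89.6% and 77.6%, and the steps from 150 to 250 kb held no island at either day.

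**Figure D4:**
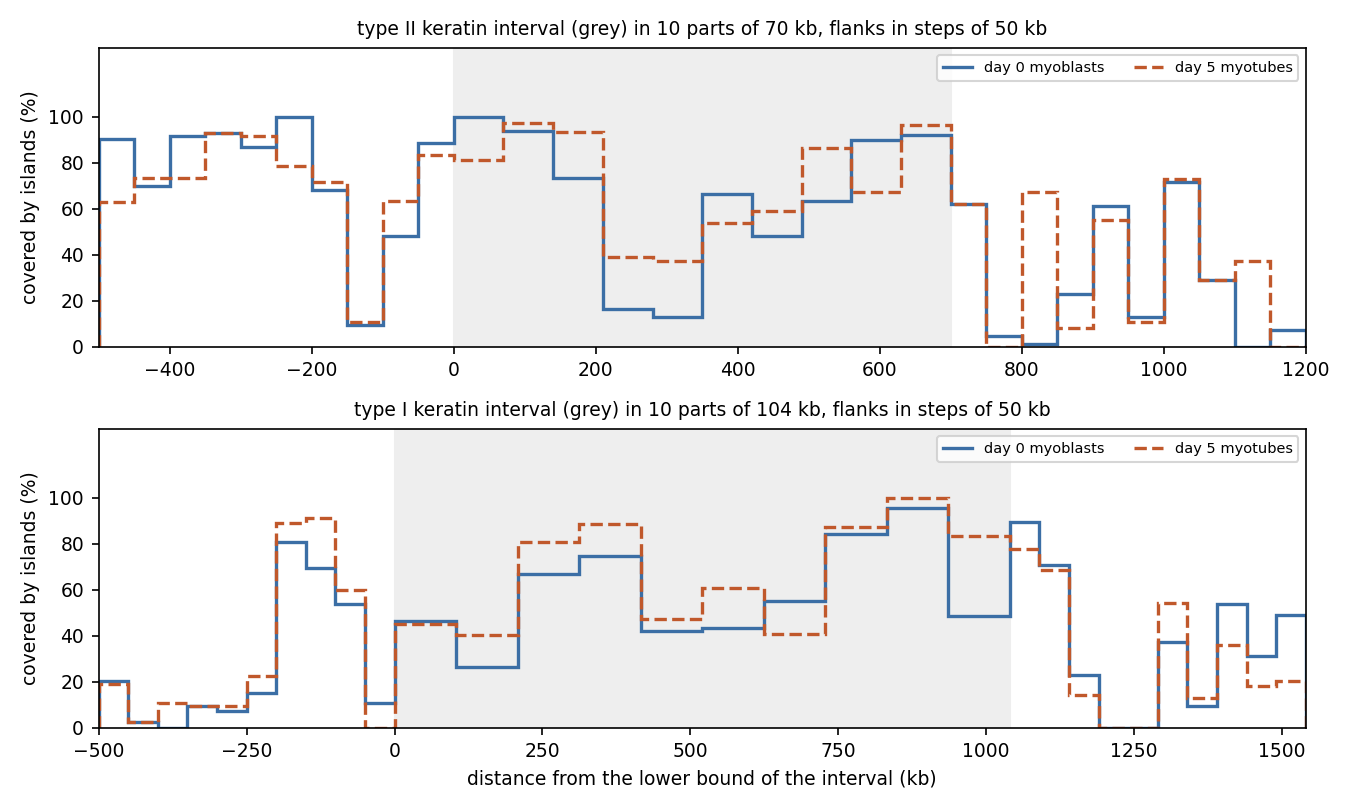
Percent of length under islands along each keratin interval (grey, 10 equal parts) and its flanks (steps of 50 kb), against distance from the lower bound in kb, for day 0 (solid) and day 5 (dashed). Cover drops to 4.8% or less in the second step above type II and to 0 from 150 to 250 kb above type I, and within the intervals the days are similar in outline, with the largest difference in the last part of type I (48.7% and 83.3%).

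Each keratin interval was set beside all intervals of its length on its chromosome, laid end to end from its bounds between the first and last island. Of 142 such intervals on chromosome 15, 12 were more covered than type II at day 0 and 10 at day 5. Their median cover was 30.9% and 32.9%, with a highest value of 85.6% and 91.5%, both from 62670001 to 63370000. The interval just below the cluster, from 100470001 to 101170000, was among the 12 at day 0 with 71.1%. By reads per kb of the whole interval, 11 were above type II at day 0 and 17 at day 5. By reads per kb of covered length, 27 of 134 intervals with islands were above it at day 0 and 45 of 135 at day 5. Type II was thus more covered than 91.5% and 93.0% of them, and lower in the order by the density of its islands. With the scaled floor it was more covered than 83.8% of them at day 0 and 69.7% at day 5.

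The type I interval ranked higher on its own chromosome. Of 112 intervals of 1040 kb on chromosome 11, 1 was more covered at each day, from 111570001 to 112610000, with 64.7% at day 0 and 82.4% at day 5. The median was 19.5% and 19.7%. The next interval after type I was from 95970001 to 97010000 at both days, with 56.0% and 53.5%. By reads per kb of covered length 46 of 101 intervals were above type I at day 0, and 19 of 104 at day 5. The longest stretch without an island, clipped at the bounds, was 33.6 kb at day 0, and none of the 112 intervals had a shorter one. At day 5 it was 42.6 kb, and 1 had a shorter one. The medians for the chromosome were 303.5 kb and 297 kb. For type II the longest stretches of 56.4 kb and 28.2 kb were undercut in 10 and 3 of 142 intervals. A well covered interval is likely to have only short gaps, so this measure is not separate from cover.

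The step from an interval to its flanks, taken jointly, was measured in the same way for the comparison intervals. Type I exceeded its flanks by 26.6 percentage points at day 0 and 36.5 at day 5. Of 111 intervals on chromosome 11 with full flanks, 2 at day 0 and 1 at day 5 exceeded theirs by more. Type II exceeded its joint flanks by 14.8 and 18.9 points, and 21 and 16 of 140 intervals on chromosome 15 exceeded theirs by more. Its step lay almost wholly on the upper side. The lower flank was more covered than the interval at day 0 (74.6% against 65.7%). At day 5 it was nearly as covered (70.2% against 71.1%). These ranks describe 2 lists and are not tests.

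**Figure D5:**
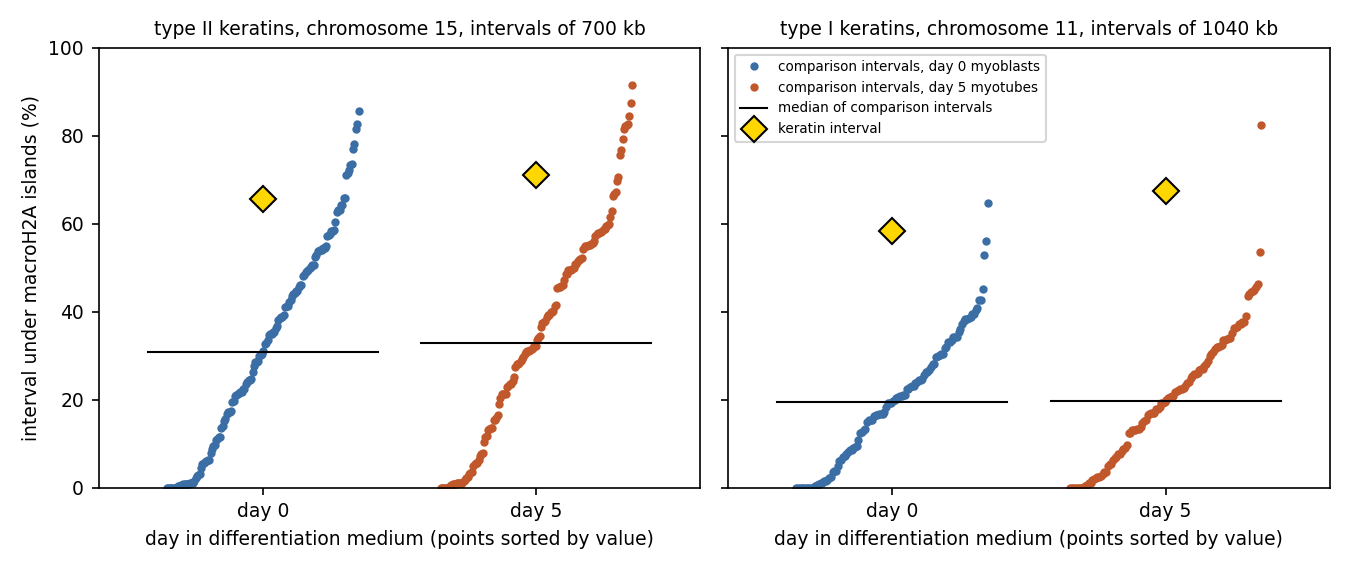
Percent of length under islands in intervals of 700 kb along chromosome 15 (left) and 1040 kb along chromosome 11 (right), sorted by value for each day; diamonds are the keratin intervals and lines the medians of the others. Type II lies at 65.7% and 71.1% with 12 and 10 intervals above it, and type I at 58.3% and 67.3% with 1 above it at each day.

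Most of the keratin cover was shared between myoblasts and myotubes. In the type II interval 387 kb were covered at both days, 72.6 kb at day 0 alone and 110 kb at day 5 alone. The shared length was 84.2% of the day 0 cover and 77.8% of the day 5 cover, which gives a Jaccard index, the shared part of the joint length, of 0.679. Chromosome 15 had an index of 0.652. In the type I interval 528 kb were shared, 78.6 kb were at day 0 alone and 173 kb at day 5 alone, an index of 0.677. Chromosome 11 had 0.543, and 9 of 104 comparison intervals had a higher index than type I. For type II 54 of 139 had a higher one. The index depends on how much is covered, so a well covered interval is likely to have a high one.

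Counted by island, sharing over type II was near that of the chromosome. Of its day 0 islands, 20 of 24 (83.3%, exact binomial interval 62.6 to 95.3%) met a day 5 island by at least 1 bp, against 76.6% on chromosome 15 and 71.4% on all chromosomes. Of its day 5 islands, 16 of 21 (76.2%, 52.8 to 91.8%) met a day 0 island, against 72.1% and 68.5%. Over type I, 42 of 46 day 0 islands (91.3%, 79.2 to 97.6%) met a day 5 island, against 78.9% on chromosome 11. Of the type I islands at day 5, 33 of 38 (86.8%, 71.9 to 95.6%) met a day 0 island, against 78.0%. The type I shares were above the chromosome's at both days, and the exact interval for day 5 includes the chromosome's share. Neighbouring islands are not independent, so these intervals are too narrow. Islands of a well covered interval are likely to be met more often, so these shares are not separate from cover.

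Island ends were seldom at the same position at both days, counted over all islands, shared or not. Of the 48 starts and ends of type II islands at day 0, 8 (16.7%) were at the same position at day 5, against 19.5% on chromosome 15. Of the 92 of type I, 11 (11.96%) were, against 12.2% on chromosome 11. At day 5 the counts were 7 of 42 (16.7%) for type II against 19.3%, and 11 of 76 (14.5%) for type I against 12.8%. Exact ends were therefore about as frequent as elsewhere on each chromosome. Over type I, 10 of 38 day 5 islands (26.3%) met at least 2 day 0 islands, against 17.3% on chromosome 11, and 7 of 46 day 0 islands (15.2%) met at least 2 day 5 islands, against 13.9%. Over type II, 4 of 21 day 5 islands (19.0%) did, against 14.2% on chromosome 15, and 4 of 24 day 0 islands (16.7%), against 12.3%. With so few islands these shares are near the background, and joining was not tested against splitting. One type I island, from 99126001 to 99130800, had both ends at the same positions at both days, with 417 reads at day 0 and 399 at day 5.

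The day 5 library had more keratin cover than the day 0 library, by amounts common along these chromosomes. The ratio of covered length, day 5 to day 0, was 1.08 over type II and 1.16 over type I. The ratio was 1.08 for chromosome 15 and 1.03 for chromosome 11. Neither interval reached a ratio of 1.5 in either direction, which 18.7% of the intervals beside type II passed upward and 9.70% downward. Beside type I the shares were 9.90% and 7.92%. The upward bound says little about the keratin intervals, which were already covered over 65.7% (type II) and 58.3% (type I) at day 0. To reach it, nearly all of type II would have to be covered at day 5. Some comparison intervals passed it with little cover. The one from 19970001 to 20670000 on chromosome 15 went from 0.343% to 7.89%. Such sparse intervals also enter the counts that follow. Of the comparison intervals with day 0 islands, 57 of 134 had a higher ratio than type II and 31 of 101 a higher one than type I. Of the 10 parts, 7 of type II and 8 of type I had more cover at day 5. Across the 10 parts, cover at both days had a Pearson correlation of 0.82 for type II and 0.83 for type I, and Spearman correlations of 0.76 and 0.81. The parts of 1 interval share their libraries and many of their islands, so these values describe the outline only.

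The direction of the type II ratio depended on which islands were counted. Without the 25% of islands with the lowest density it was 0.962, and with a floor of 70 reads per kb, scaled at day 5 by 1.14, it was 0.831. The type I ratio stayed above 1 in all 7 settings tried for it, from 1.13 to 1.70. In 1 of them, the cut of day 5 to the covered length of day 0, no type I island was removed. The ratio could not change there.

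Where islands of both days lay, density at day 5 relative to day 0 was close to the genome median. After division by the genome median of 1.14, the median fold was 0.986 over type II and 1.05 over type I. The flanks ran from 0.943 to 1.08. Of the comparison intervals, 72 of 119 had a higher value than type II and 17 of 97 a higher one than type I. Input reads were not analysed, and the part that DNA amount or read mapping has in these densities was not tested. The keratin and keratin-associated families hold near-identical copies, and how the authors treated reads that map to several places is not given in the sources used here.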

How the data were processed

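MacroH2A ChIP-seq of C2C12 cells at day 0 and day 5 was taken from the 2 island lists. Each list holds chromosome, start, end and a whole-number read count per island; these counts are as deposited and unscaled. Per the submitters' processing notes, the build was mm9 and the tools were SICER 1.1, MACS 1.4.2, CASAVA 1.4 and Bowtie2 2.2.6, with no roles stated. The list names carry W600, G1200 and FDR0.01, read here as a 600 bp window, a 1200 bp gap and a false discovery rate of 0.01. Control use and the handling of duplicate reads are not given in the sources used here.

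Islands were clipped at the bounds of each interval, 500 kb flanks and same-length intervals, and their reads shared out evenly along the island. Coordinates count from 1. The members, lists and comparisons were chosen with earlier results of these data known. The rule for named regions took per interval and day the 3 widest and 3 densest islands, those at the bounds, the 2 longest stretches free of islands, and the 3 islands with most reads that met none of the other day. Groups of parts, the 30 kb border rule and joined islands were picked with their values in view. Gene names came from a RefSeq table of GRCm38.p6, and no coordinates of it were used. No sequence is printed, since no mm9 genome was at hand. The code was checked on simulated islands. Versions were matplotlib 3.10.9, SciPy 1.17.1, pandas 2.3.3, NumPy 2.4.6 and Python 3.11.15.

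Alternatives left out the 25% least dense islands, cut day 5 to the covered length of day 0, merged islands within 5 kb, moved the bounds by 50 kb, changed the comparison intervals, kept whole islands only, or required 50% overlap. Floors of 70 reads per kb were added after the data were seen. A recomputed value counted as moved outside the 95% interval of the reported one. That interval was binomial over 600 bp windows for cover and the Jaccard index, binomial over comparison intervals or islands for shares of these, Poisson for densities and from the window counts for ratios. Windows of the same island are not independent, so the intervals from windows are too narrow, and more values count as moved.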

Additional observations from a re-analysis of the deposited data

How the results depend on the processing

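No paired analysis was possible because each day has 1 library, and no test was made. Of 128 recomputed values 77 stayed within the tolerance, 49 moved and 2 reversed. Values of day 0 could not change where only the day 5 list was cut. That cut removed none of the 38 type I islands of day 5. Type I cover, density, covered length ratio and Jaccard index could therefore not change under it either. These unchanged values are counted among the 77. Values are given for type II and type I in that order. Without the 25% least dense islands, covered length at day 5 over day 0 reversed to 0.962 for type II and was 1.43 for type I. Cover was 60.7% (type II, day 5), 43.8% (type I, day 0) and 62.4% (type I, day 5), and the Jaccard index 0.588 and 0.596. Density in reads per kb was 90.5 and 103 for type II and 79.2 and 91.1 for type I (day 0, day 5). Merging islands within 5 kb gave by construction more cover and lower density: 69.6% (type II, day 0), 64.1% and 72.2% (type I), densities of 84.6 and 95.2 (type II) and 69.0 and 83.98 (type I), and a type I Jaccard index of 0.742. Moving the bounds outward gave a type I cover of 64.8% at day 5, a type II Jaccard index of 0.713 and type II densities of 90.9 and 102. Moving them inward, which leaves out the dense ends, gave a type II cover of 60.6% at day 0 with 84.2% of intervals less covered, a Jaccard index of 0.647 and densities of 86.6 and 93.4. Islands wholly inside type II had 80.4 and 95.4 reads per kb. With the scaled floor of 70 reads per kb, the covered length ratio of type II reversed to 0.831 and that of type I was 1.27. Cover was 55.7% and 46.3% for type II and 39.6% and 50.2% for type I, with 83.8% and 69.7% of intervals less covered than type II. The type II Jaccard index was 0.555, and densities were 93.4 and 112 (type II) and 80.3 and 94.6 (type I). With the floor unscaled the ratios were 1.26 and 1.70, cover at day 0 was 55.7% and 39.6%, 83.8% of intervals were less covered than type II at day 0, day 0 densities were 93.4 and 80.3, and the type I Jaccard index was 0.530. A floor raises density and lowers cover by construction; the cause was not tested for the rest. Type I was more covered than at least 96.4% of intervals under all 9 settings tried for that rank at each day. With 1 library a day, variation between cultures was not measured.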
